A study of Mus musculus with 8 samples.

Results

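The genes described here are 4 C-type lectin receptor genes (Clec7a, Clec4n, Clec4d and Clec4e), 2 genes of adaptors with an immunoreceptor tyrosine-based activation motif (ITAM; Fcer1g and Tyrobp), the kinase gene Syk, and the genes of the Card9 complex (Card9, Bcl10 and Malt1). They were picked by symbol, and all 10 were found, once each, among the 23358 gene rows of the expression table. RNA was sequenced from outflow veins of fistulas joining the carotid artery to the jugular vein in C57BL6J mice. All animals had kidney disease induced as a model of the chronic condition, the fistula was made 28 days later, and veins were collected 3 days after the fistula. In 4 samples 250000 mesenchymal stem cells (MSCs), taken from C57 donors matched to the recipient for sex, had been laid on the outside of the vein (MSC group). The other 4 are labelled vehicle, a treatment whose make-up was not used here. Donor and recipient share a strain, so RNA of the transplanted cells cannot be told apart from that of the vein. It is not stated whether each sample is 1 animal, so spread and p-values describe these samples.

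C-type lectin receptors of this group sit on macrophages, neutrophils and dendritic cells and bind sugars and glycolipids of fungi, mycobacteria and damaged cells. A bound receptor signals through an ITAM, either its own partial motif (Clec7a) or that of a partner adaptor. Src-family kinases phosphorylate the motif, Syk docks on it, and protein kinase C delta then lets Card9 assemble with Bcl10 and Malt1, which leads to NF-kB activation and cytokine genes. In a vein wall after surgery the lectin receptor, adaptor and Card9 genes report chiefly on leukocytes, while Bcl10 and Malt1 also act in other cells. Which cells gave the reads was not tested. In bulk tissue more cells of a type and more RNA per cell cannot be told apart.

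Card9 came to attention because its level differed between MSC and vehicle veins in an earlier account of these data, and the other 9 genes were added by their place in the pathway with those results known. Their differences between MSC and vehicle veins are therefore given as a description with no p-value. Tests were made on the order of their levels, which that choice did not use. Values are RPKM (reads per kilobase of gene model, scaled to library depth), and fold changes are limma estimates on log2(RPKM + 1), which understates the change of low genes.

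All 10 genes were well covered, with 709 to 12053 reads per sample after whole reads were recovered from the RPKM steps, so that counting error was at most 3.76% of any single value. Library totals were 26.9 to 38.2 M (mega) gene reads. Vein markers were present in every group: the summed level of 8 endothelial markers was 475 to 591 RPKM in vehicle and 363 to 595 RPKM in MSC veins, and that of 7 smooth muscle markers 128 to 282 and 156 to 279 RPKM. Markers of 2 other tissues differed between the groups on average, and a fit with the adipocyte score is given beside the other covariates. The 8 adipocyte markers summed to 3080 to 4626 RPKM in vehicle and 367 to 1801 RPKM in MSC veins (median log2 fold change -2.17, without overlap in 7 of 8). The sum of 8 skeletal muscle markers was 2.47 to 450.4 RPKM in vehicle and 8.63 to 606 RPKM in MSC veins (median log2 fold change 1.55, groups overlapping). Over all 12129 genes tested, 28 passed a limma adjusted p of 0.05, 3 higher and 25 lower in MSC veins. That split was 11 higher and 60 lower with median-ratio scaling, and 33 higher and 96 lower with quantile normalization.

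The adaptors were the most abundant of these genes and Malt1 the least. Averaged over all 8 samples, levels per length ran from Tyrobp (382 RPKM) and Fcer1g (258 RPKM) through Clec4d (77.7 RPKM), Clec4n (40.7 RPKM), Clec4e (31.2 RPKM), Syk (29.4 RPKM), Clec7a (24.8 RPKM), Bcl10 (23.1 RPKM) and Card9 (13.9 RPKM) to Malt1 (6.26 RPKM). Of the 9 neighbouring pairs in that order, 6 kept the same order in 8 of 8 samples. Those were Tyrobp over Fcer1g, Fcer1g over Clec4d, Clec4d over Clec4n, Clec4n over Clec4e, Bcl10 over Card9 and Card9 over Malt1. Each had a 2-sided exact sign-flip permutation p = 0.00781, the smallest that 8 pairs allow (Benjamini-Hochberg adjusted p = 0.0117 over the 9 pairs). Levels of Clec4e, Syk, Clec7a and Bcl10 crossed from sample to sample, and their neighbouring differences did not pass (exact permutation adjusted p = 0.817, 0.151 and 0.922). Tyrobp ranked above 99.1% of the genes tested by mean level, Card9 above 67.9% and Malt1 above 40.1%.

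**Figure D1:**
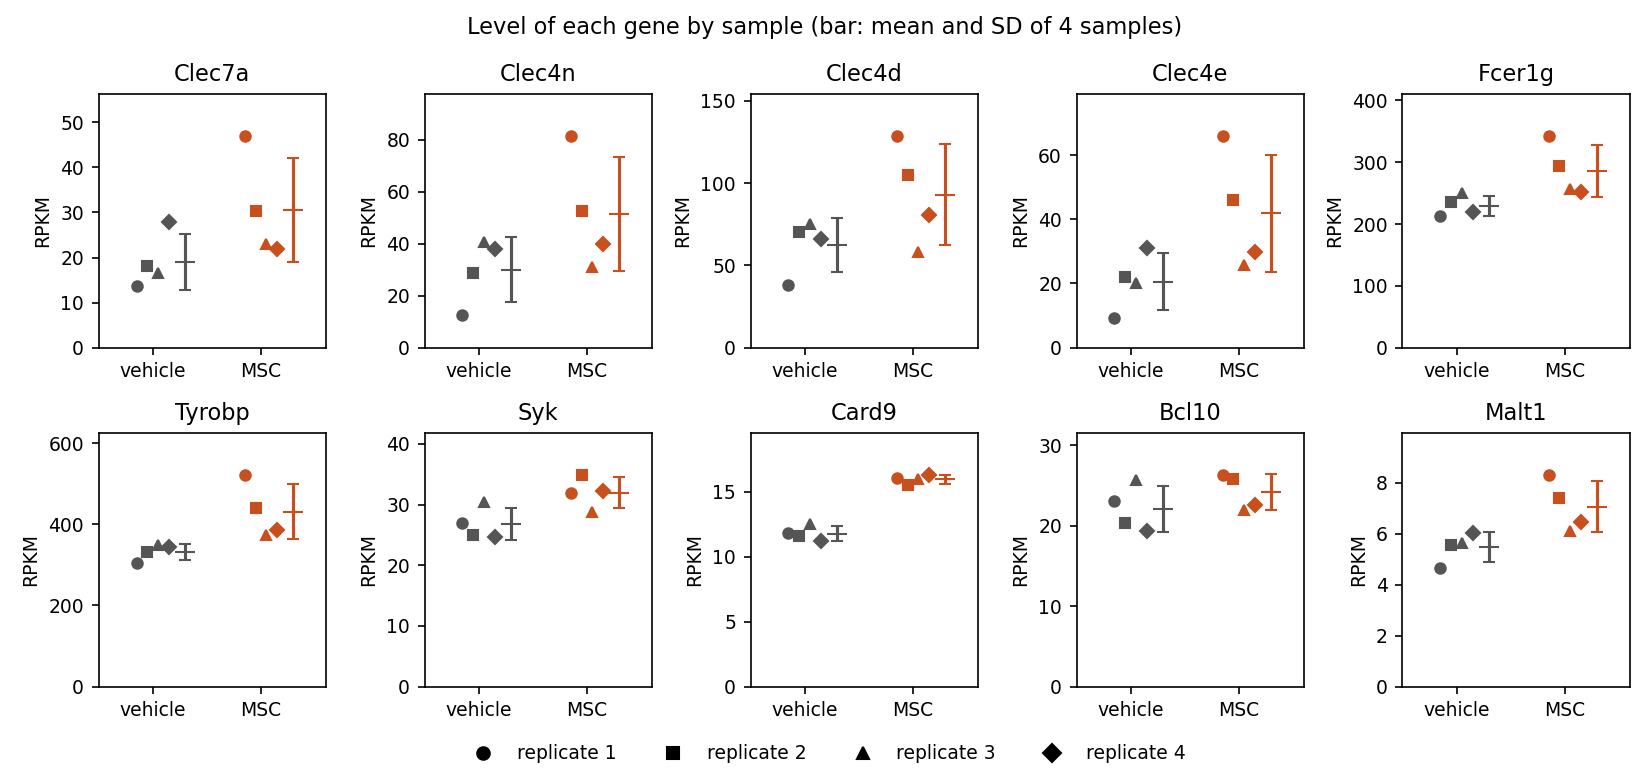
RPKM of each of the 10 genes (vertical axes, each starting at 0) in vehicle (grey) and MSC (orange) veins; symbols mark the replicate number and bars the mean and SD of 4 samples. The lectin receptors spread widely within groups, from 9.27 to 30.9 RPKM for Clec4e in vehicle veins, while Card9 stays within 11.2 to 12.5 RPKM in vehicle and 15.5 to 16.3 RPKM in MSC veins.

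With all samples and no covariate the lectin receptor genes had the highest fold changes of the set, and they had the widest spread between samples of a group. That order is not stable. Clec4d was below Card9 without vehicle replicate 1 (0.34 against 0.41) and without MSC replicate 1 (0.38 against 0.41). With sample weights Clec4d was below Card9 too (0.34 against 0.40). Marker scores as covariates also changed the order. Nothing is read from that for Card9, whose small spread within groups leaves a covariate little by which to move it. Clec4e encodes Mincle, a receptor for mycobacterial glycolipids and for signals of dying cells. Its level was 9.27, 22.0, 20.0 and 30.9 RPKM in vehicle replicates 1 to 4, and 66.0, 46.0, 25.9 and 29.7 RPKM in MSC replicates 1 to 4. The groups overlapped, because MSC replicates 3 and 4 lay below vehicle replicate 4. Means were 20.5 ± 8.89 RPKM in vehicle and 41.9 ± 18.3 RPKM in MSC veins (SD, n = 4 each), a log2 fold change of 1.01 (SE 0.37).

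Clec4n encodes Dectin-2, which binds fungal mannans. It stood at 12.7, 28.6, 40.7 and 38.1 RPKM in the vehicle samples and at 81.4, 52.7, 31.2 and 39.9 RPKM in the MSC samples. Again MSC replicates 3 and 4 were within the vehicle range, and the log2 fold change was 0.78 (SE 0.38). Clec4d, also called MCL, forms a receptor complex with Mincle and with the Fc receptor gamma chain. Its values were 38.3, 70.3, 74.9 and 66.0 RPKM in vehicle veins and 129, 105, 57.9 and 80.5 RPKM in MSC veins. There MSC replicate 3 alone was within the vehicle range, and the log2 fold change was 0.55 (SE 0.27). Clec7a encodes Dectin-1, the receptor for fungal beta-glucans. It was at 13.6, 18.2, 16.5 and 28.0 RPKM in vehicle and at 47.0, 30.3, 23.0 and 21.9 RPKM in MSC veins. MSC replicates 3 and 4 lay below vehicle replicate 4, and the log2 fold change was 0.63 (SE 0.27).

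The same samples were at the ends of all 4 receptors: vehicle replicate 1 was the lowest of the 8 samples and MSC replicate 1 the highest. Leaving out 1 sample moved these values: without vehicle replicate 1 the log2 fold change was 0.43 for Clec4n, 0.34 for Clec4d and 0.69 for Clec4e. Without MSC replicate 1 that of Clec7a was 0.41. The spread within groups, as the SD of log2(RPKM + 1), was 0.45 for Clec7a, 0.66 for Clec4n, 0.47 for Clec4d and 0.65 for Clec4e, and between 94.5% and 97.9% of the genes tested had a smaller one. The Clec4d to Clec4e ratio was 1.95 to 2.71 in MSC veins, a narrower range than the 2.13 to 4.13 in vehicle veins. The Clec4n to Clec4e ratio was 1.15 to 1.34 in MSC veins. It was 1.37, 1.30, 2.04 and 1.23 in vehicle replicates 1 to 4, where replicate 3 alone made the range wider.

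In GRCm38 (GENCODE vM21), Clec4n (17179 bases, start 123229843), Clec4d (13155 bases, start 123262111) and Clec4e (8082 bases, start 123281789) are neighbours on chromosome 6, with gaps of 15089 and 6523 bases between them. Clec7a lies 6171720 bases further along the chromosome, at 129461591 to 129472779, and is annotated there as a polymorphic pseudogene. No annotated gene overlapped any of the 4. The 250 bases upstream of the RefSeq start (GRCm38.p6) are shown for the receptor genes that have an entry and share the high and low samples above. Capitals mark matches to GAGGAA, the core of sites for the myeloid factor PU.1, on either strand (TTCCTC on the other strand), and to TTGCNNAA, a C/EBP-type motif, on either strand (TTNNGCAA on the other). The motifs were chosen with the expression results known.
Clec4d promoter, chr6:123261857-123262106, strand +: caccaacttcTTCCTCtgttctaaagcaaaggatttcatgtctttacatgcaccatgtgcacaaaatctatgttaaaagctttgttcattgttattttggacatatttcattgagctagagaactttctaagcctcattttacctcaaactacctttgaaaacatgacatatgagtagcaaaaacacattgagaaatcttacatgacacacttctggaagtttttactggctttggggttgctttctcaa
Clec4e promoter, chr6:123289872-123290121, strand -: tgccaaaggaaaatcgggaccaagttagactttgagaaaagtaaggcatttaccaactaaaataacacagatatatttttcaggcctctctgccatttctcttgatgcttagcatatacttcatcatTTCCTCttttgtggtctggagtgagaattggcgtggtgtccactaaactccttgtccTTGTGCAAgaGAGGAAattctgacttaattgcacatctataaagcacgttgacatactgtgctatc
Clec7a promoter, chr6:129472780-129473029, strand -: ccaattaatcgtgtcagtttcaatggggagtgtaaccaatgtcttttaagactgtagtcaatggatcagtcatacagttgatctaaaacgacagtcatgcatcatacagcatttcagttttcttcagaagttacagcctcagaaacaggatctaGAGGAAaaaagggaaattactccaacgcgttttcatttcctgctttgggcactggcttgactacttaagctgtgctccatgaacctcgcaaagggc
GAGGAA or its complement was in the window of 3 of the 7 genes with an entry, these 3, and in 23.1% of the 27025 promoters searched. The Clec4e window held it at 123 to 118 and at 56 to 51 bases before the start, and held the C/EBP-type motif at 66 to 59 bases before the start, the latter found in 9.55% of all promoters and in no other of the 7. The palindromic AP-1 motif TGANTCA was in none of the 7 and in 6.87% of all promoters. A match of letters is a description of the sequence and was not tied to binding in these veins.

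With all samples and no covariate the adaptors differed less between groups than the receptors, and they had a narrower spread. That order is not stable either: with each marker score as a covariate both adaptors were above Clec4d. With the neutrophil score Fcer1g (0.18) and Tyrobp (0.21) were also above Clec4n (0.06). Fcer1g encodes the Fc receptor gamma chain, the ITAM partner of Dectin-2, MCL and Mincle as well as of Fc receptors. Its level was 213, 235, 249.7 and 219 RPKM in vehicle veins and 343, 294, 257 and 252 RPKM in MSC veins. Every MSC sample was above every vehicle sample, with a log2 fold change of 0.31 (SE 0.11). Tyrobp encodes DAP12, the adaptor of Trem receptors and of Clec5a. It was at 305, 332, 349.7 and 344 RPKM in vehicle and 522, 441, 374 and 387 RPKM in MSC veins, again with no overlap and with a log2 fold change of 0.36 (SE 0.11). The Tyrobp to Fcer1g ratio stayed between 1.40 and 1.57 in all 8 samples. It was 1.45 ± 0.0802 in vehicle and 1.50 ± 0.0349 in MSC veins (SD, n = 4 each).

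Fcer1g lies on chromosome 1 at 171229572 to 171234365, and Tyrobp on chromosome 7 at 30413760 to 30417585. Fcer1g is also a gene of mast cells and platelets, and Tyrobp one of NK cells. The summed level of 10 mast cell and basophil markers was 68.8 to 124 RPKM in vehicle and 50.9 to 125 RPKM in MSC veins, that of 8 platelet markers 375 to 607 and 522 to 812 RPKM, and that of 8 NK cell markers 3.41 to 15.2 and 3.41 to 4.002 RPKM. The part of platelets in the Fcer1g values was not tested.

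Syk, the kinase that docks on the ITAM, was at 27.0, 24.9, 30.5 and 24.7 RPKM in vehicle and at 31.9, 34.9, 28.8 and 32.3 RPKM in MSC veins. MSC replicate 3 was below vehicle replicate 3, so the groups overlapped. The log2 fold change was 0.25 (SE 0.10). Zap70, the related kinase of T cells, averaged 0.231 RPKM over all samples, below the level at which genes were tested. Syk spans 52583173 to 52648792 on chromosome 13.

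Card9, the adaptor that links Syk to Bcl10 and Malt1, had a difference between groups far larger than the spread within them. It was at 11.8, 11.6, 12.5 and 11.2 RPKM in vehicle veins and at 16.0, 15.5, 16.0 and 16.3 RPKM in MSC veins. The lowest MSC sample was above the highest vehicle sample. Means were 11.8 ± 0.558 and 16.0 ± 0.329 RPKM (SD, n = 4 each), a ratio of means of 1.36. The limma log2 fold change, on log2(RPKM + 1), was 0.41 (SE 0.07). Leaving out any 1 sample gave 0.39 to 0.44. The coefficient of variation was 4.73% in vehicle and 2.06% in MSC veins, where read counting alone gives at most 3.48% and 2.90%. Of the genes tested, 0.437% had a smaller spread within groups. That spread enters the contrast by which Card9 was noticed, so its small size supports nothing. Vehicle replicate 1, lowest for all 4 receptors, was second highest for Card9 among vehicle samples. MSC replicate 1, highest for all 4, was second highest for Card9 after MSC replicate 4. Card9 values within a group differ by about counting error, so nothing is read from these ranks.

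Card9 spans 26352176 to 26360918 on chromosome 2, and its exons overlap those of Gm13562 on the opposite strand. No source used here says whether counting used strand, so reads of the pair could not be told apart if it was not. The bases upstream of its start are shown beside those of the receptors. They hold no match to the motifs searched, and so have no capitals.
Card9 promoter, chr2:26360910-26361159, strand -: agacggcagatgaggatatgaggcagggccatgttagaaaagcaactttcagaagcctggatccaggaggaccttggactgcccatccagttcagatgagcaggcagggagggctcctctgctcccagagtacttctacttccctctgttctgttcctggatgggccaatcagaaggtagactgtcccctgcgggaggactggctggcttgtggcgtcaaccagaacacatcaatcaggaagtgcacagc

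Bcl10, the filament-forming partner of Card9, was at 23.0, 20.3, 25.7 and 19.4 RPKM in vehicle veins and at 26.3, 25.9, 21.9 and 22.5 RPKM in MSC veins. The groups overlapped widely, and the log2 fold change of 0.13 (SE 0.11) was the smallest of the set. It was 0.20 without vehicle replicate 3 and 0.07 without vehicle replicate 4. The Bcl10 to Card9 ratio was 1.95, 1.75, 2.05 and 1.73 in vehicle and 1.64, 1.67, 1.37 and 1.38 in MSC veins. Every MSC sample thus had less Bcl10 per Card9 than any vehicle sample. Since Card9 was noticed for its contrast, this ratio largely restates that difference and supports nothing. Malt1, the paracaspase of the complex, was at 4.65, 5.56, 5.63 and 6.02 RPKM in vehicle and at 8.30, 7.39, 6.10 and 6.44 RPKM in MSC veins. The groups did not overlap, and the log2 fold change was 0.31 (SE 0.11). The Card9 to Malt1 ratio overlapped between groups, at 1.86 to 2.54 and 1.93 to 2.62. Bcl10 spans 145922804 to 145934356 on chromosome 3, and Malt1 spans 65430938 to 65479067 on chromosome 18.

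Other scaffolds can take Card9's place beside Bcl10 and Malt1 in other cells. Card10, that of endothelial and epithelial cells, was at 8.68 ± 1.13 RPKM in vehicle and 7.71 ± 2.49 RPKM in MSC veins (SD, n = 4 each). Card14, that of keratinocytes, averaged 0.562 RPKM over all samples. The Card9 to Card10 ratio was 1.10 to 1.58 in vehicle and 1.50 to 3.10 in MSC veins. It too holds the Card9 difference, so nothing is read from it.

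Read together, all 10 genes had a positive log2 fold change, with a median of 0.39 against 0.04 over all genes tested, of which 59.5% were positive. None of the 10 passed a limma adjusted p of 0.05, where 0.231% of all genes did (0.0247% higher and 0.206% lower), and none passed in limma voom on the recovered reads. At an unadjusted p under 0.05, 7 were higher in limma and 6 in voom and none lower, against 10.1% of all genes higher and 6.36% lower in limma. In voom 999 of all 12129 genes were higher and 1185 lower at that p, so the balance of all genes turned between the tools. Every MSC sample was above every vehicle sample in 4 (Fcer1g, Tyrobp, Card9 and Malt1), against 5.61% of all genes. Nothing is read from these counts, since the genes were chosen with this contrast in view. Card9 passed in 3 of the 21 alternatives (median-ratio scaling, quantile normalization and sample weights), and no other member in any. Over all genes 71, 129 and 73 passed in those alternatives, against 28 in the main fit. Since Card9 was noticed for this contrast, its passing supports nothing.

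**Figure D2:**
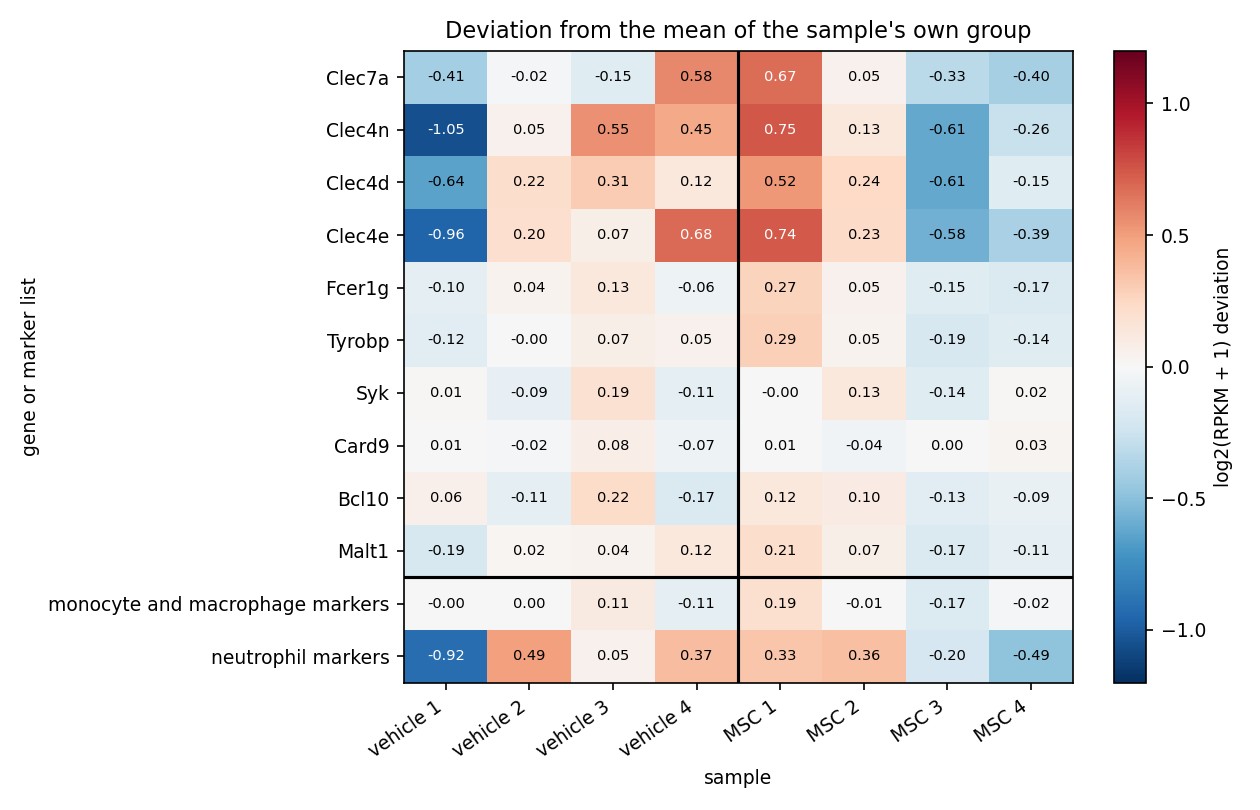
Deviation of log2(RPKM + 1) of each gene (rows) from the mean of its own group in each sample (columns), with the mean scores of the monocyte and macrophage and of the neutrophil markers in the lowest rows. Vehicle replicate 1 is 1.05 below its group for Clec4n, 0.96 below for Clec4e and 0.92 below for neutrophil markers, while the largest deviation for Card9 is 0.08.

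Leukocyte markers varied between samples beside these genes. The neutrophil list (12 of 13 genes found, 7 at a mean of at least 1 RPKM) summed to 224, 814, 609 and 779 RPKM in vehicle replicates 1 to 4 and to 1387, 1361.5, 808 and 588 RPKM in MSC replicates 1 to 4. S100a8 and S100a9 made up most of it, and the granule genes Elane, Mpo, Ngp, Ltf and Camp of immature neutrophils averaged 0.0965 to 0.334 RPKM. Vehicle replicate 1, lowest for every lectin receptor, was lowest here too, and MSC replicates 1 and 2 were highest. The monocyte and macrophage list (14 genes, all tested) summed to 3422 to 4289 RPKM in vehicle and 3991 to 6316 RPKM in MSC veins, and the dendritic cell list (8 genes) to 18.1 to 32.4 and 30.5 to 41.0 RPKM. T cell and B cell lists of 7 genes each stayed at or under 17.4 RPKM in every sample. No listed marker gene was at 0 in all samples.

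Marker scores were also entered in the fit as covariates. Card9 varied little within groups (SD of log2(RPKM + 1) 0.05), which leaves a covariate little by which to move its fold. Its small change in these fits therefore supports nothing and is not set against that of the receptors. With the neutrophil score as a covariate, an alternative added after the data were seen, the log2 fold change was 0.18 (SE 0.25) for Clec7a, 0.06 (SE 0.31) for Clec4n, 0.05 (SE 0.22) for Clec4d and 0.23 (SE 0.23) for Clec4e. In that fit it was 0.44 (SE 0.09) for Card9, 0.26 (SE 0.13) for Syk and 0.14 (SE 0.14) for Bcl10. Fcer1g had 0.18 (SE 0.13), Tyrobp 0.21 (SE 0.13) and Malt1 0.14 (SE 0.10). With the monocyte and macrophage score as a covariate, Clec7a had 0.39 (SE 0.35), Clec4n 0.23 (SE 0.46), Clec4d 0.08 (SE 0.29) and Clec4e 0.63 (SE 0.49). Card9 had 0.37 (SE 0.09), Syk 0.13 (SE 0.12), Fcer1g 0.10 (SE 0.11), Tyrobp 0.17 (SE 0.12), Malt1 0.18 (SE 0.14) and Bcl10 -0.06 (SE 0.12). In the fit with the adipocyte score, log2 fold changes were 0.53 (SE 0.47) for Clec7a, 0.47 (SE 0.67) for Clec4n, 0.21 (SE 0.46) for Clec4d and 0.87 (SE 0.66) for Clec4e. Card9 then had 0.36 (SE 0.13), Bcl10 0.02 (SE 0.19), Syk 0.17 (SE 0.17), Fcer1g 0.21 (SE 0.20), Tyrobp 0.23 (SE 0.20) and Malt1 0.24 (SE 0.19). The median of the 10 genes was 0.17, 0.18 and 0.24 with the macrophage, neutrophil and adipocyte score, against 0.39 with none. None of these fits called any of the 10 genes. All 3 scores differ on average between the groups, so a covariate takes up part of the group difference. Whether the receptors' folds differ from that of Card9 was not tested.

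**Figure D3:**
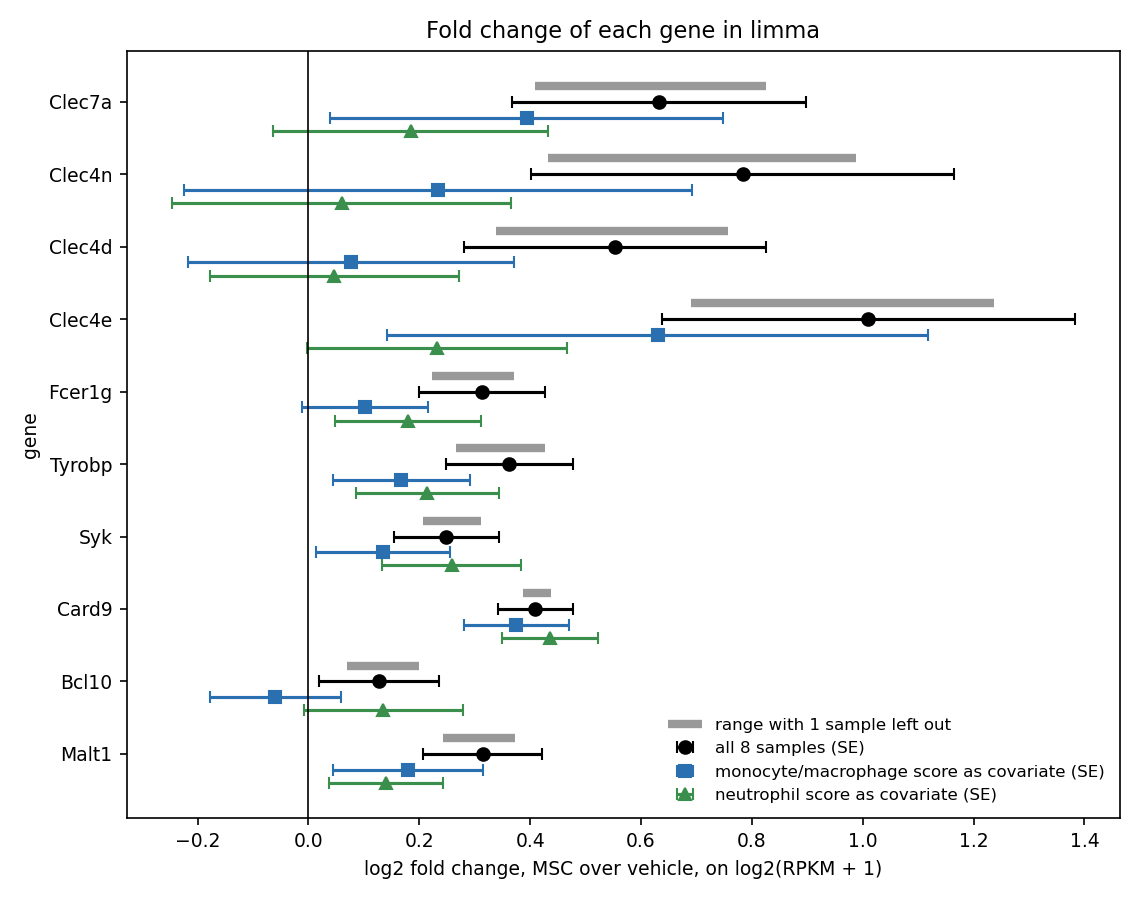
log2 fold change of each gene, MSC over vehicle, in limma (black, all 8 samples, with SE), its range with 1 sample left out (grey), and its value with a marker score as covariate (blue and green, with SE). With the neutrophil score Clec4e goes from 1.01 to 0.23. The small spread of Card9 within groups leaves a covariate little by which to move it, so its values are not set against those of the receptors.

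The pathway around these genes was followed through 7 lists written by role, with 112 genes tested. None passed in limma (26 higher and 3 lower at an unadjusted p under 0.05) or in voom (21 higher and 4 lower at that p, where the larger side of all genes in voom was the lower one). Over all genes tested, 10.1% were higher and 6.36% lower at that p in limma. A positive log2 fold change was found in 84 of the 112, against 59.5% of all genes, the share to set beside the list counts below. The median log2 fold change of the 112 was 0.15, against 0.04 over all genes tested. Groups did not overlap in 10 genes that were higher in MSC veins and in 3 that were lower, against 5.61% and 4.17% of all genes. Genes named in each list are those of highest mean level.

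Other C-type lectin receptors of myeloid cells had values on both sides of 0. Of 13 tested, 3 were above 0 and 10 below 0 on the log2 fold change scale, and the median was -0.10. Mrc1, the macrophage mannose receptor, was at 149.8 ± 45.2 RPKM in vehicle and 128 ± 8.55 RPKM in MSC veins (SD, n = 4 each). Clec4a1 was at 58.5 ± 12.2 and 51.1 ± 5.32 RPKM, and Clec4a3 at 45.4 ± 12.9 and 41.3 ± 4.31 RPKM. Clec2d, a ligand of NK cell receptors, was at 74.4 ± 14.3 and 50.4 ± 4.05 RPKM, with every MSC sample below every vehicle sample.

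Other ITAM-coupled receptors and adaptors had a positive log2 fold change in 18 of 18 tested, with a median of 0.36. Fcgr3, an Fc receptor that signals through the gamma chain, was at 103 ± 11.3 RPKM in vehicle and 115 ± 17.7 RPKM in MSC veins (SD, n = 4 each). Trem2, a DAP12-coupled lipid receptor of macrophages, was at 57.02 ± 11.4 and 78.4 ± 9.98 RPKM. The leukocyte integrin genes Itgb2 and Itgam, whose signals also use these adaptors, were at 79.7 ± 8.58 and 118 ± 21.7 RPKM and at 83.9 ± 12.3 and 106 ± 15.4 RPKM.

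Among kinases and effectors around Syk, 15 of 20 had a positive log2 fold change, with a median of 0.19. The Src-family kinase gene Lyn was at 46.7 ± 6.76 RPKM in vehicle and 48.7 ± 5.14 RPKM in MSC veins (SD, n = 4 each). Prkcd, whose kinase phosphorylates Card9, was at 39.1 ± 3.72 and 50.6 ± 5.30 RPKM, with a log2 fold change of 0.36 (SE 0.10). Lat2, a membrane adaptor, was at 23.3 ± 1.81 and 31.2 ± 1.84 RPKM without overlap, with a log2 fold change of 0.41 (SE 0.08).

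Downstream of Card9, of 23 CARD scaffold and NF-kB pathway genes, 15 were positive and 8 negative, with a median of 0.06, and log2 fold changes ran from -0.19 to 0.33. That share of positive genes is near the 59.5% over all genes tested. Nfkb1 was at 20.0 ± 0.496 RPKM in vehicle and 21.9 ± 1.94 RPKM in MSC veins (SD, n = 4 each), Casp8 at 31.3 ± 4.39 and 30.0 ± 1.21 RPKM, Tab2 at 20.5 ± 1.57 and 22.5 ± 1.22 RPKM, and Nfkb2 at 17.97 ± 4.30 and 22.6 ± 3.34 RPKM. The 8 Malt1 substrate genes tested had a median of 0.08. Rc3h1, which encodes the RNA-binding protein Roquin, was at 9.38 ± 0.603 and 7.84 ± 0.658 RPKM, with every MSC sample lower. The others of highest level were N4bp1 (14.6 ± 1.37 and 15.0 ± 1.76 RPKM), the NF-kB subunit gene Relb (9.62 ± 2.06 and 11.9 ± 1.67 RPKM) and Tnfaip3, which encodes the NF-kB inhibitor A20 (6.69 ± 2.70 and 10.04 ± 3.38 RPKM).

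Of 20 inhibitory receptor, phosphatase and ubiquitin ligase genes, 18 were positive, with a median of 0.17. Lilrb4, an inhibitory receptor of myeloid cells, was at 118 ± 15.3 RPKM in vehicle and 167 ± 22.2 RPKM in MSC veins without overlap (SD, n = 4 each; log2 fold change 0.50, SE 0.13). Fcgr2b, the inhibitory Fc receptor, was at 111 ± 11.3 and 125 ± 23.5 RPKM, and Sirpa at 75.5 ± 10.5 and 93.5 ± 8.14 RPKM. Nfkbia, the feedback inhibitor of NF-kB, was at 68.1 ± 7.39 and 74.5 ± 14.9 RPKM.

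Cytokine and chemokine genes that Card9 signalling can induce had the highest median of the lists, 0.58, with 12 of 13 positive. None passed in limma, and groups did not overlap in 1 of the 13. Whether Card9 induced any of them in these veins was not tested. Il1b was at 17.6, 101, 70.7 and 134 RPKM in vehicle and at 289, 221.5, 141 and 162 RPKM in MSC veins, without overlap. Cxcl2, a neutrophil chemokine, was at 8.57, 50.4, 44.1 and 72.3 RPKM and at 208, 110, 63.8 and 71.3 RPKM. In both genes vehicle replicate 1 was the lowest and MSC replicate 1 the highest sample, as in the lectin receptors. Cxcl1 had the same ends (19.3 and 55.6 RPKM). Ccl2 did not: it was highest in vehicle replicate 2 (245 RPKM) and lowest in vehicle replicate 4 (79.1 RPKM). Ccl2 was at 138 ± 74.3 RPKM in vehicle and 156 ± 23.2 RPKM in MSC veins (SD, n = 4 each), and Cxcl1 at 29.5 ± 15.6 and 42.4 ± 10.1 RPKM. Il12a, Il12b, Il23a and Csf2 averaged 0.117 to 0.179 RPKM and were not tested.

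**Figure D4:**
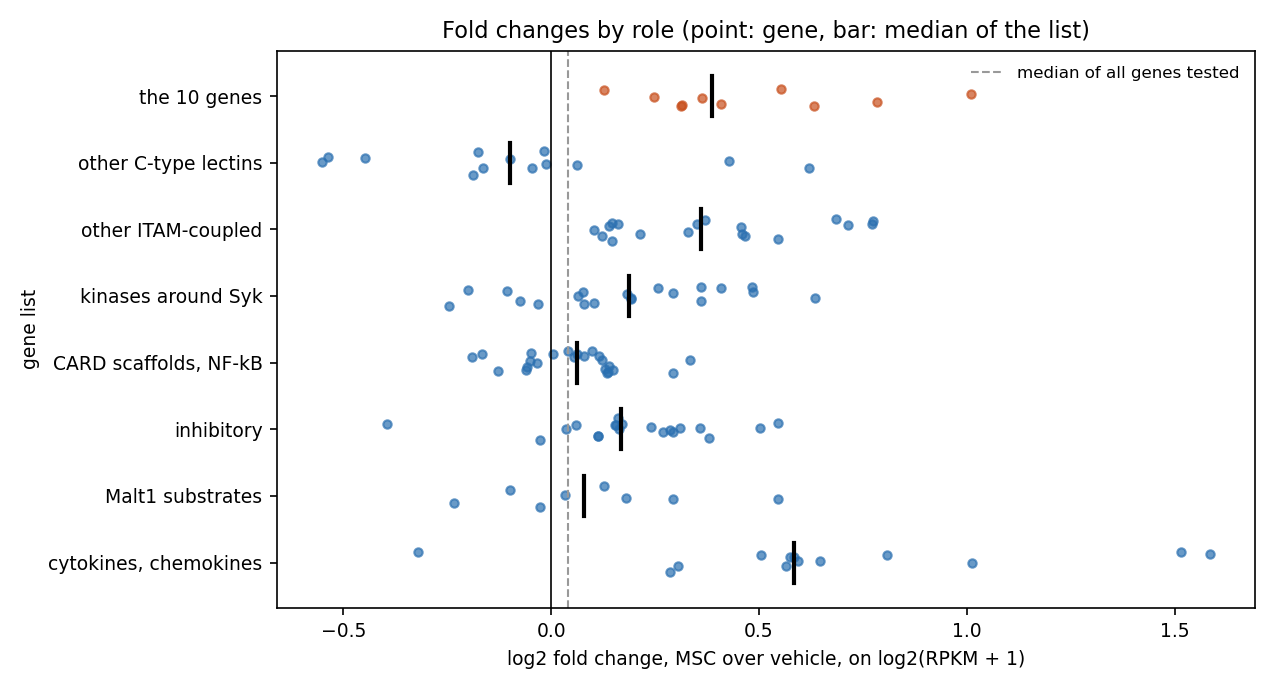
log2 fold change, MSC over vehicle, of each gene tested (points) in the set of 10 and in the 7 pathway lists, with each list's median (black bar) and the median of all genes tested (dashed line, 0.04). Medians run from -0.10 for other C-type lectins to 0.58 for cytokine and chemokine genes.

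All genes tested were ranked by likeness to Card9, as the Euclidean distance between standardised log2(RPKM + 1) profiles over the 8 samples. After the group means were removed the nearest were BC024659 (0.796), Capn7 (0.800), Rap2a (0.808), Zfp472 (0.808), Anln (0.826) and the macrophage gene Emr1 (0.872), against a median distance of 3.42 over all genes. Of the other members, Bcl10 (2.41) and Syk (2.50) came nearest, and the 4 lectin receptors were at 3.75 to 4.54. With the group means kept the nearest were Otub1 (0.650), Gins2 (0.713), Aprt (0.767), Kctd11 (0.775), Wtip (0.788) and Nckap1l (0.805), against a median of 3.39, and the nearest member was Syk (1.61). Without the group means the spread left in Card9 is about that of read counting (4.73% and 2.06% against at most 3.48% and 2.90%). With them the distance is set largely by the contrast for which Card9 was noticed. Both lists are therefore a description of 8 samples that supports nothing, and no test was made of them.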

How the data were processed

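Bulk RNA was sequenced from 8 fistula veins, 4 per group, from 0.5 µg of total RNA with a TruSeq V2 kit, per the labels' protocols. The authors deposited RPKM values, 1 column per sample. Per the submitters' processing notes the build was mm10. For aligner, counter, annotation and strand: not given in the sources used here. Members and lists were chosen with earlier results of these data known.

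Whole reads were recovered from the RPKM steps (100.0% of values above 0, tolerance 0.001 reads). A gene's shared factor makes them a lower bound, so the counting errors given are upper limits. SD and SE values describe spread between samples. The main test was limma 3.58.1 (R 4.3.3) on log2(RPKM + 1) with a mean-variance trend, 2-sided, Benjamini-Hochberg adjusted at 0.05, on the 12129 genes averaging 1 RPKM or more; it was tested on simulated data. Named genes were the 10 members, the 4 of highest mean RPKM in each pathway list (1 is not reported here) and the 6 nearest to Card9; marker genes were named where highest or near 0. Promoters are from RefSeq (GRCm38.p6), with entries for 7 members. No 2 replicates agreed within counting noise (chi-square per degree of freedom at least 31.2). Alternatives covered pseudocount, filter, scaling, block, weights, trend, limma voom (TMM factors, written out in R), covariates and each sample left out.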

Additional observations from a re-analysis of the deposited data

How the results depend on the processing

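Of 210 log2 fold changes of the 10 genes over 21 alternatives, 209 were above 0. In the main fit 59.5% of all genes tested were above 0. The 10 genes were chosen with this contrast in view, and the alternatives reuse the same samples. Nothing is therefore read from that count. Bcl10 reversed to -0.060 with the macrophage score as a covariate, and the cause was not tested. The median of the members was 0.39, and 0.17, 0.18 and 0.24 with the macrophage, neutrophil and adipocyte score as a covariate; in the other alternatives it was 0.32 to 0.42, and 0 other pathway genes passed in any. Of the 9 neighbouring level pairs, 5 to 6 passed with 1 sample left out; the 5 came without MSC replicate 1, where the mean of Clec4e is below that of Syk and other genes become neighbours. Members passing numbered 1 (Card9) with median-ratio scaling, quantile normalization and sample weights, which supports nothing because Card9 was noticed for this contrast. The 28 genes passing over the whole table became 10 with a pseudocount of 0.1, 1 with no filter, 14 with a filter at 0.1 RPKM, 71 with median-ratio scaling, 129 with quantile normalization, 73 with sample weights, 51 with voom, 0 with the macrophage or adipocyte score and 2 with the neutrophil score as a covariate. Leaving out 1 sample gave 0 to 170 (0 without vehicle replicate 2 or MSC replicate 4, 170 without MSC replicate 3). With the replicate number as a block 0 genes passed (1027 higher and 741 lower at an unadjusted p under 0.05); deviations of same-numbered samples correlated at 0.14, -0.0028, -0.33 and -0.12, and 1 of 8 samples was closest to its own number, so the numbers were not taken to pair the samples.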

Other observations

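Receptors that signal through Tyrobp were looked at after their values were seen. Trem1, an amplifying receptor of neutrophils and monocytes, had 2.71, 7.08, 4.64 and 5.56 RPKM in the vehicle samples, against 12.8, 14.1, 5.64 and 5.80 RPKM in the MSC samples (replicates in order). Trem3 was at 0.980, 3.79, 2.10 and 3.72 RPKM and at 6.09, 6.39, 3.91 and 3.63 RPKM. Clec5a, a DAP12-coupled lectin-like receptor, was at 3.145, 4.88, 5.10 and 6.39 RPKM and at 11.5, 9.47, 4.91 and 6.92 RPKM. In all 3 vehicle replicate 1 was lowest and the 2 highest samples were MSC replicates 1 and 2. Those 2 samples also had the highest neutrophil marker sums, and a link was not tested. Trem2, also DAP12-coupled and at a higher level, did not have that order. It was lowest in vehicle replicate 2 (48.0 RPKM), and vehicle replicate 1 (72.1 RPKM) was above MSC replicate 2 (70.6 RPKM). None passed over all genes in limma (adjusted p = 0.279 for Trem1, 0.230 for Trem3, 0.249 for Clec5a and 0.171 for Trem2). The Src-family kinase gene Fgr of myeloid cells had a log2 fold change of 0.64 (SE 0.25), and Ptpn6, the phosphatase SHP-1, one of 0.38 (SE 0.14), with limma adjusted p of 0.258 and 0.221. Clec10a, a galactose-binding lectin of macrophages and dendritic cells, was at 27.5 ± 10.3 RPKM in vehicle and 17.7 ± 2.53 RPKM in MSC veins (SD, n = 4 each; limma adjusted p = 0.248).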
